A study of Mus musculus with 13 samples.

Results

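The 30 genes described here encode the enzymes and regulators of cholesterol and fatty acid synthesis. They were taken by symbol, with no threshold on any difference between groups, and all 30 had a summed expected count of at least 10 over the 13 libraries, as did 22984 of the 55536 genes in the files. RNA sequencing measured expression in mouse frontal cortex. Wild-type B6SJLF1/J mice gave 4 libraries at 6 months and 3 at 11 months of age. Mice labelled 5XFAD gave 3 libraries at each age. 5XFAD is a transgenic line in which mutated human transgenes are driven by the neuronal promoter of the mouse Thy1 gene, and it serves as an amyloid model. The labels give no strain background for the 5XFAD mice and no sex for any mouse. The comparisons ask how the genotypes differ at each age, how the ages differ within a genotype, and whether the genotype difference changes with age.

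The adult brain makes its own cholesterol, because lipoproteins of the blood do not cross the blood-brain barrier. Acetyl-CoA is built up through mevalonate and isoprenoid units to squalene, which is closed into a ring and trimmed to cholesterol. Fatty acids are built from the same acetyl-CoA. Transcription of both pathways is driven by the SREBP proteins: when membranes are low in sterol, Scap escorts SREBP out of the endoplasmic reticulum to be cleaved, and when sterol is plentiful the Insig proteins hold it back. Astrocytes and myelinating oligodendrocytes are known as the main sites of brain cholesterol synthesis.

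Most of the sterol genes stood higher in 5XFAD than in wild type at both ages, by small amounts. The median log2 fold change over the 30 genes was 0.21 at 6 months and 0.22 at 11 months, beside -0.01 and -0.03 over all 17483 genes tested. At 6 months 28 of the 30 lay above 0, as did 48.3% of all genes tested, and at 11 months 23 of the 30, beside 45.0%. In 8 genes, namely Acat2, Fdps, Sqle, Nsdhl, Ebp, Stard4, Acaca and Fasn, every 5XFAD library lay above every wild-type library of the same age at both ages. That pattern was seen in 4.0% of all genes tested. No member had all 6 5XFAD libraries above all 7 wild-type libraries (2.01% of all genes tested). Within 1 age, the 5XFAD libraries lay above wild type without overlap in 12 members at 6 months (6.97% of all genes) and 11 at 11 months (10.4%), and below it in 1 (5.07%) and 0 (8.76%). Few single genes passed the test across all genes. By edgeR's quasi-likelihood test with Benjamini-Hochberg adjustment, 0 of the 30 were called at 6 months (1.32% of all genes tested) and 3 at 11 months, Stard4, Nsdhl and Fdps, all higher (3.80% of all genes tested were called higher). At an unadjusted p under 0.05 there were 12 higher and 1 lower at 6 months, beside 5.61% and 3.48% of all genes, and at 11 months 11 higher and 0 lower, beside 8.87% and 6.90%. DESeq2 called 2 members at 6 months (Fdft1 and Stard4, with 2.20% of all genes called) and 7 at 11 months (6.45% of all genes). On a log2(TPM + 1) scale, TPM being an abundance corrected for transcript length, 21 and 19 members lay above 0, beside 24.2% and 27.6% of all genes. On that scale 2 and 5 members were higher at an unadjusted p under 0.05 (2.65% and 5.81% of all genes) and 2 and 2 lower (12.1% and 16.0%). The median of all genes was -0.11 and -0.12 there, and 27 and 23 members lay above it.

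**Figure D1:**
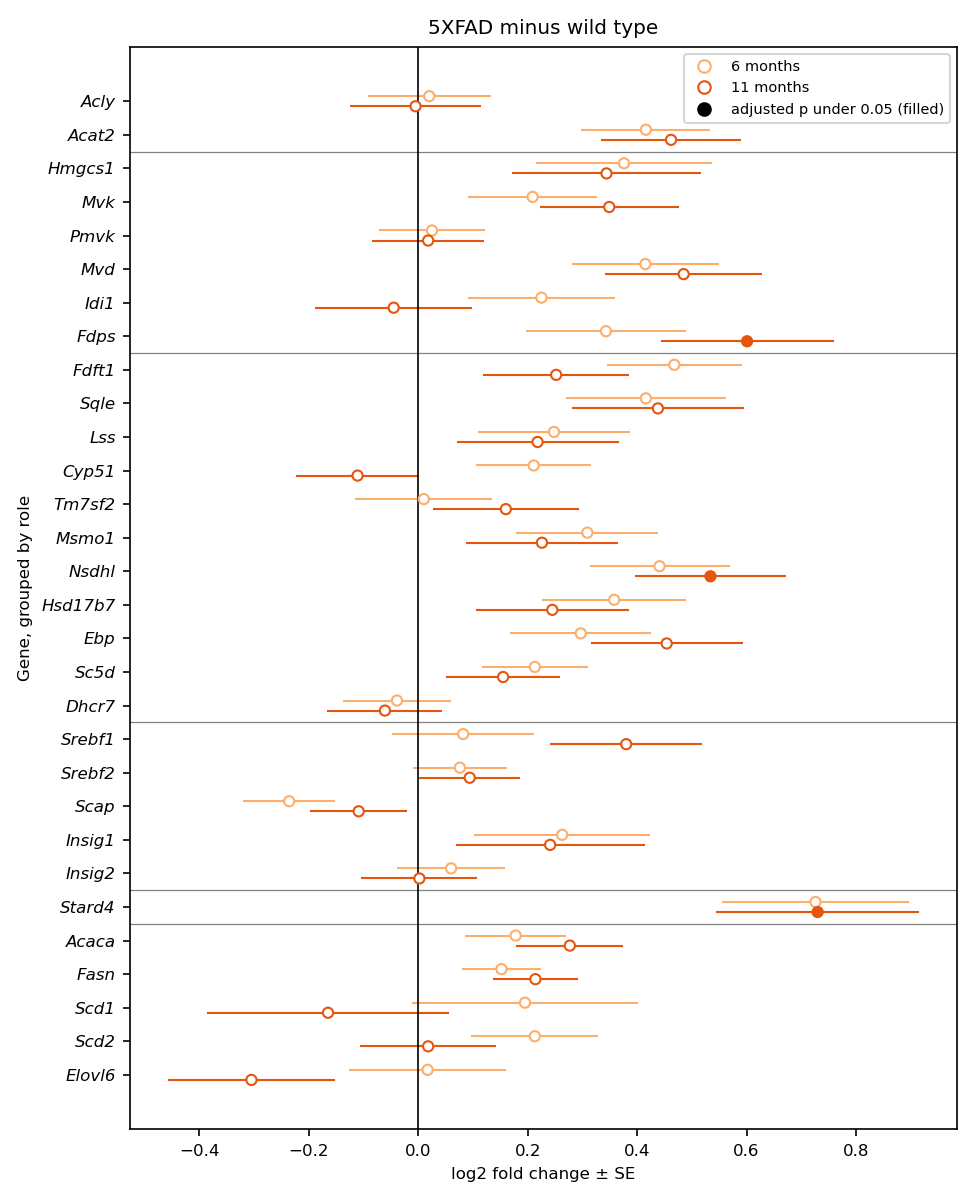
Difference between 5XFAD and wild type for each of the 30 genes, as log2 fold change with its standard error on the horizontal axis, at 6 months (light) and 11 months (dark), with filled points for an adjusted p under 0.05. The filled points are Fdps, Nsdhl and Stard4 at 11 months, and Stard4 has the largest difference at both ages.

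The libraries held between 23618289 and 26615772 rounded counts, of which the 30 genes took 0.261% to 0.350%. Wild-type replicate 1 at 6 months stood apart. It held choroid plexus transcripts, with a summed level of 4224 TPM over 4 marker genes, where the lowest library of that group had 15.3 TPM and the 5XFAD libraries of that age had at most 39.1 TPM, and it was the lowest of the 13 libraries for 14 of the 30 genes. Without it the median over the 30 genes at 6 months was 0.13, with 25 genes above 0, 6 higher and 1 lower at an unadjusted p under 0.05, and again 12 genes above wild type without overlap (9.06% of all genes). The same 8 genes lay above wild type at both ages (4.58% of all genes). The read-out of Xist and Y-linked transcripts gave 2 female libraries in wild type at 6 months, 0 in 5XFAD at 6 months, 1 in wild type at 11 months and 2 in 5XFAD at 11 months. Mitochondrial transcripts took 8.38% to 8.88% of counts in wild type and 9.94% to 9.99% in 5XFAD at 6 months, and 7.89% to 11.4% and 10.1% to 11.3% at 11 months. The part of sex and of RNA composition in the differences between genotypes was tested only for sex, by a covariate. The titles number each library, but nothing ties a number to an animal. Both sexes were read in wild type at each age and in 5XFAD at 11 months, so each of those groups held more than 1 animal. The spread behind each p-value is that between libraries and may be technical in part. Levels below are CPM, counts scaled to library size with TMM factors, listed by replicate number, which pairs nothing across groups.

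**Figure D2:**
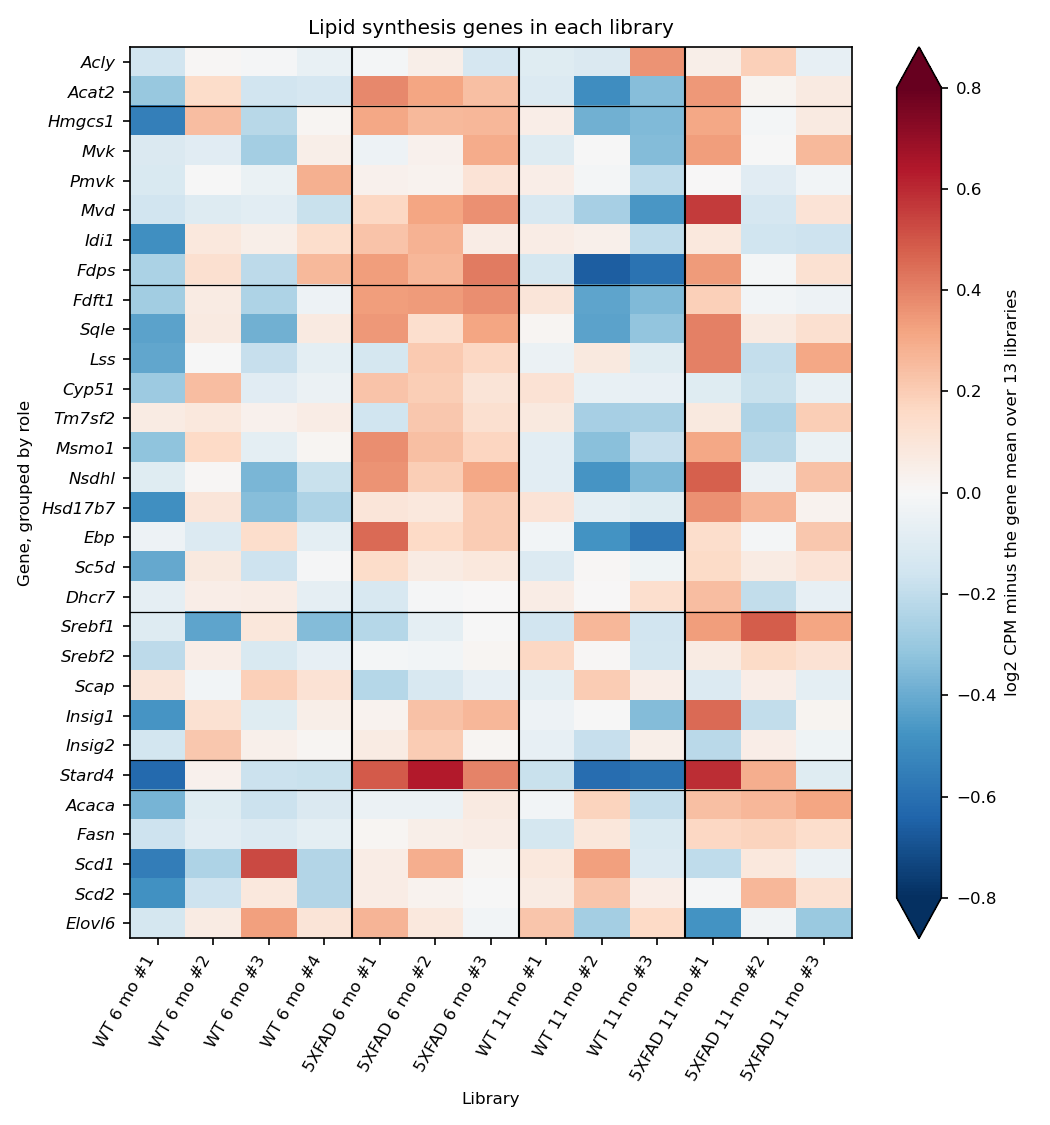
Level of each gene (rows, grouped by role) in each library (columns), as log2 CPM minus that gene's mean over the 13 libraries. Wild-type replicate 1 at 6 months is the lowest library for 14 genes, and 5XFAD replicate 1 at 11 months is the highest for 9.

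Promoter windows from RefSeq (build GRCm38.p6, the files' own build in a later patch) were at hand for 24 of the 30 genes, in 32 windows running from 250 bases before to 50 after a start site. They are shown to describe the genes, not to account for the genotype differences. In each stretch the capitals mark the CCAAT box (CCAAT, or ATTGG on the other strand), which is known to bind NF-Y, a partner of SREBP, or the sterol element TCACNCCAC on either strand. The stretches below are the 150 bases before the start site, written along the gene's own strand. Nsdhl (plus strand, chrX:72918371-72918520) was called at 11 months, Hmgcs1 (plus, chr13:119690201-119690350) and Mvd (minus, chr8:122443423-122443572) open and close the mevalonate steps, Ebp (minus, chrX:8193513-8193662) is a late sterol step, and Fasn (minus, chr11:120824548-120824697) is the fatty acid synthase.
Nsdhl: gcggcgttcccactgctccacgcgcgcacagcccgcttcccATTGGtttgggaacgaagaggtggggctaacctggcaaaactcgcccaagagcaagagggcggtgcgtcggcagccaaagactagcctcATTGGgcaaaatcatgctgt
Hmgcs1: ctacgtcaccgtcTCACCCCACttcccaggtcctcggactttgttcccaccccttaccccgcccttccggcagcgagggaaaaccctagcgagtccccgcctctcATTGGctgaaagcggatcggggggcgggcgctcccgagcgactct
Mvd: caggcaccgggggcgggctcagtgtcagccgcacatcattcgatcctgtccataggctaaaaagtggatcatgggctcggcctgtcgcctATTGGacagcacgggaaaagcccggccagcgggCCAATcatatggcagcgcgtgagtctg
Ebp: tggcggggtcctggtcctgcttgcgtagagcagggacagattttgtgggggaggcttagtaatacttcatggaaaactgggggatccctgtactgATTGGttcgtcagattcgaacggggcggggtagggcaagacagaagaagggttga
Fasn: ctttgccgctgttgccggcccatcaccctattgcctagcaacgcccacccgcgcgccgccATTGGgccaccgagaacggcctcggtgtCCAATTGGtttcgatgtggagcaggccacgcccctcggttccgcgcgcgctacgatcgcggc

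The Hmgcs1 stretch holds the single sterol element found among the members, which overlaps no CCAAT box. It begins 137 bases before the start site. This element was present in 1 of the 24 genes' windows (4.17%) and in 1.39% of genes tested with a window of the same length. A CCAAT box on either strand was present in 20 of the 24 genes (83.3%), beside 42.2% of 12491 genes tested, and a GC box, GGGCGG on either strand, in 20 of the 24 (83.3%), beside 64.9%. In Fasn a pair of CCAAT boxes on opposite strands overlap in CCAATTGG. Fdft1, Fdps, Scd1, Scd2, Sqle and Stard4 had no window to search. Chromosome 18, which holds Stard4, was left out of the search, for the members and for all genes alike. Of the members apart between genotypes at both ages, Nsdhl, Ebp and Fasn held a CCAAT box, while Acat2 and Acaca held none. A box was also found in genes whose genotypes overlapped at both ages, such as Acly, Pmvk, Tm7sf2 and Dhcr7. The other members without a box were Elovl6 and Scap. Whether a motif goes with a genotype difference was not tested. These matches describe letters only, and no binding was measured.

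Acly and Acat2 supply the pathway: Acly cleaves citrate to cytosolic acetyl-CoA, and Acat2 joins 2 acetyl-CoA units. Acat2 stood at 49.3, 67.4, 54.8 and 55.4 CPM in the wild-type libraries at 6 months and at 79.5, 75.8 and 71.8 CPM in 5XFAD. The 11-month levels of Acat2 were 56.5, 43.0 and 48.0 CPM in wild type and 77.5, 61.8 and 64.0 CPM in 5XFAD. The genotypes did not overlap at either age. The log2 fold changes were 0.42 ± 0.12 and 0.46 ± 0.13 (standard error), with adjusted p = 0.161 and 0.062 by edgeR, so neither passed the threshold of 0.05. Its expected counts were fractional in all 13 libraries, which means that some of its reads were shared with other genes. Counts were also fractional in all 13 libraries for Hmgcs1, Fdft1 and Tm7sf2. They were in 11 libraries for Acaca, 10 for Scd1 and Scap, 7 for Fdps and 3 for Idi1. Acly, by contrast, was at 123, 138, 136 and 131 CPM in wild type and 136, 142 and 125 CPM in 5XFAD at 6 months, and the groups overlapped. The values at 11 months were 128, 126 and 176 CPM in wild type and 141, 156 and 131 CPM in 5XFAD. Its log2 fold changes were 0.02 ± 0.11 and -0.01 ± 0.12.

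The mevalonate and isoprenoid steps run from Hmgcs1, which makes HMG-CoA, through the kinases Mvk and Pmvk and the decarboxylase Mvd to Idi1, which interconverts the isoprene units, and Fdps, which joins them into farnesyl diphosphate. Fdps (ENSMUSG00000059743, GRCm38 chromosome 3, 89093588 to 89101959) overlaps Gm43738, which drew 5 counts in all. Fdps passed the test at 11 months. It stood at 61.0, 42.6 and 44.7 CPM in wild type and 85.4, 66.5 and 73.2 CPM in 5XFAD, a log2 fold change of 0.60 ± 0.16 (adjusted p = 0.0483 by edgeR). All 3 5XFAD libraries lay above all 3 wild-type libraries. At 6 months Fdps was at 56.5, 73.5, 58.3 and 80.6 CPM in wild type and 84.9, 81.0 and 89.8 CPM in 5XFAD, which did not overlap but touched within 1 CPM (0.34 ± 0.15, adjusted p = 0.495). The wild-type group mean was 67.2 ± 11.7 CPM at 6 months and 49.4 ± 10.03 CPM at 11 months, while that of 5XFAD was 85.2 ± 4.44 and 75.0 ± 9.61 CPM (mean ± SD, n = 4, 3, 3 and 3).

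Mvd showed its difference at both ages without passing the test. At 6 months its levels were 26.2, 27.2, 27.5 and 25.7 CPM in wild type and 32.7, 36.3 and 37.6 CPM in 5XFAD, with no overlap (0.41 ± 0.13, adjusted p = 0.254). At 11 months they were 26.7, 24.2 and 21.1 CPM in wild type and 42.9, 26.5 and 31.4 CPM in 5XFAD (0.48 ± 0.14, adjusted p = 0.0856). The 5XFAD libraries at 11 months were spread widely, and replicate 2 fell within the wild-type range. Mvk stood at 21.2, 21.6, 19.1 and 23.8 CPM in wild type and 22.4, 23.6 and 28.3 CPM in 5XFAD at 6 months, with overlap, and at 21.5, 22.9 and 18.1 CPM in wild type and 29.1, 23.0 and 27.6 CPM in 5XFAD at 11 months, where 5XFAD replicate 2 exceeded the highest wild-type library by under 1 CPM. The log2 fold changes of Mvk were 0.21 ± 0.12 and 0.35 ± 0.13. Of the other 3 genes of these steps, Hmgcs1 ranged over 138 to 251 CPM in the 13 libraries, with log2 fold changes of 0.38 ± 0.16 and 0.34 ± 0.17. Idi1 ranged over 27.1 to 46.1 CPM, with 0.23 at 6 months and -0.04 at 11 months. Pmvk ranged over 36.1 to 50.6 CPM and lay nearest to no difference of the 6, at 0.03 and 0.02.

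From squalene onward 11 genes were measured. Fdft1 makes squalene, Sqle oxidises it, Lss closes the ring to lanosterol, and Cyp51, Tm7sf2, Msmo1, Nsdhl, Hsd17b7, Ebp, Sc5d and Dhcr7 trim lanosterol to cholesterol. Nsdhl (ENSMUSG00000031349, chromosome X, 72918557 to 72958514), a sterol dehydrogenase that takes part in removing the extra methyl groups, passed the test at 11 months. It stood then at 31.6, 24.1 and 26.1 CPM in wild type and 46.6, 32.3 and 39.4 CPM in 5XFAD (0.53 ± 0.14, adjusted p = 0.043 by edgeR). All 5XFAD libraries lay above all wild-type libraries, with the nearest pair within 1 CPM. At 6 months Nsdhl was at 31.3, 33.6, 25.9 and 29.5 CPM in wild type and 42.9, 38.3 and 41.3 CPM in 5XFAD, a wider gap (0.44 ± 0.13, adjusted p = 0.173). With sex as a covariate Nsdhl passed at both ages, with adjusted p = 0.00601 at 6 months. It was the only member called with that covariate at either age, and Fdps and Stard4 lost their 11-month calls. By the transcript read-out the 5XFAD libraries at 6 months were all male. The sex effect in that fit was thus taken from the other groups and assumed equal in all.

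Ebp, the sterol isomerase that also lies on chromosome X, was at 20.1, 19.2, 22.9 and 19.6 CPM in wild type and 28.3, 23.2 and 23.9 CPM in 5XFAD at 6 months. The 11-month levels of Ebp were 20.4, 14.9 and 13.9 CPM in wild type and 22.9, 20.5 and 24.1 CPM in 5XFAD. The genotypes did not overlap at either age, but came close to each other at both, and neither difference passed (0.30 ± 0.13 and 0.45 ± 0.14, adjusted p = 0.501 and 0.0971). Sqle, a rate-controlling step of the pathway, was at 42.0, 59.3, 43.3 and 59.4 CPM in wild type and 71.9, 61.9 and 70.2 CPM in 5XFAD at 6 months and at 57.1, 41.9 and 45.5 CPM in wild type and 74.7, 59.3 and 61.8 CPM in 5XFAD at 11 months. Its log2 fold changes were 0.42 ± 0.15 and 0.44 ± 0.16, with no overlap between genotypes within an age, and neither passed.

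Fdft1 had the largest difference of these 11 at 6 months, 0.47 ± 0.12 (adjusted p = 0.109), and 0.25 ± 0.13 at 11 months, over a range of 94.7 to 164 CPM. At 6 months its 3 5XFAD libraries were tightly grouped, at 160.0, 160.4 and 164 CPM. Fdft1 shares 774 exonic bases on opposite strands with Ctsb, a lysosomal protease gene at 551 to 1322 CPM. Ctsb was itself called higher in 5XFAD at 6 months (0.40 ± 0.09) and 11 months (0.98 ± 0.09). The strand setting of the authors' counting is not given in the sources used here, so the values of Fdft1 are uncertain. The expected counts of Fdft1 were fractional in all 13 libraries. How far reads of Ctsb entered them was not tested. The other 7 genes did not pass at either age. Msmo1 (0.31 and 0.23 at 6 and 11 months), Hsd17b7 (0.36 and 0.24), Lss (0.25 and 0.22) and Sc5d (0.21 and 0.15) lay above 0 at both ages. Cyp51, the demethylase of lanosterol, was at 0.21 and -0.11, and the test of the difference between the ages gave -0.32 ± 0.15 (unadjusted p = 0.0559, adjusted p = 1 by edgeR). Cyp51 shares 166 exonic bases on opposite strands with Akap9, at 38.6 to 89.3 CPM, so its values are uncertain as well. Counts of Cyp51 were fractional in 0 of the 13 libraries, and how far reads of Akap9 entered them was not tested. Akap9 had log2 fold changes of -0.18 ± 0.25 and -0.405 ± 0.27 between genotypes. The difference between the ages was -0.22 ± 0.37 for Akap9. Tm7sf2 (0.01 and 0.16) and Dhcr7 (-0.04 and -0.06) were close to 0. Tm7sf2 shares 532 exonic bases with Vps51 on the same strand, and its counts were fractional in all 13 libraries.

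Stard4, a small carrier protein gene that moves cholesterol between membranes, had the largest difference of the 30 at both ages. At 6 months it stood at 19.7, 31.0, 26.9 and 26.8 CPM in wild type and 42.5, 47.0 and 39.9 CPM in 5XFAD. The 11-month levels of Stard4 were 26.8, 19.9 and 20.1 CPM in wild type and 45.6, 37.0 and 28.3 CPM in 5XFAD. The 2 genotypes were clearly apart at 6 months, and at 11 months the lowest 5XFAD library lay less than 2 CPM above the highest wild-type library. The log2 fold changes were 0.73 ± 0.17 (adjusted p = 0.0615 by edgeR) and 0.73 ± 0.19 (adjusted p = 0.0428), so the 11-month value passed and the 6-month value did not. The test of a difference between the ages gave 0.00 ± 0.25. At 11 months the highest wild-type library of Stard4, Fdps and Nsdhl alike was replicate 1, the 1 female library of that group, and the highest 5XFAD library was replicate 1, also female. The other female 5XFAD library, replicate 3, was the lowest of its group for Stard4 and lay between the other 2 for Fdps and Nsdhl.

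**Figure D3:**
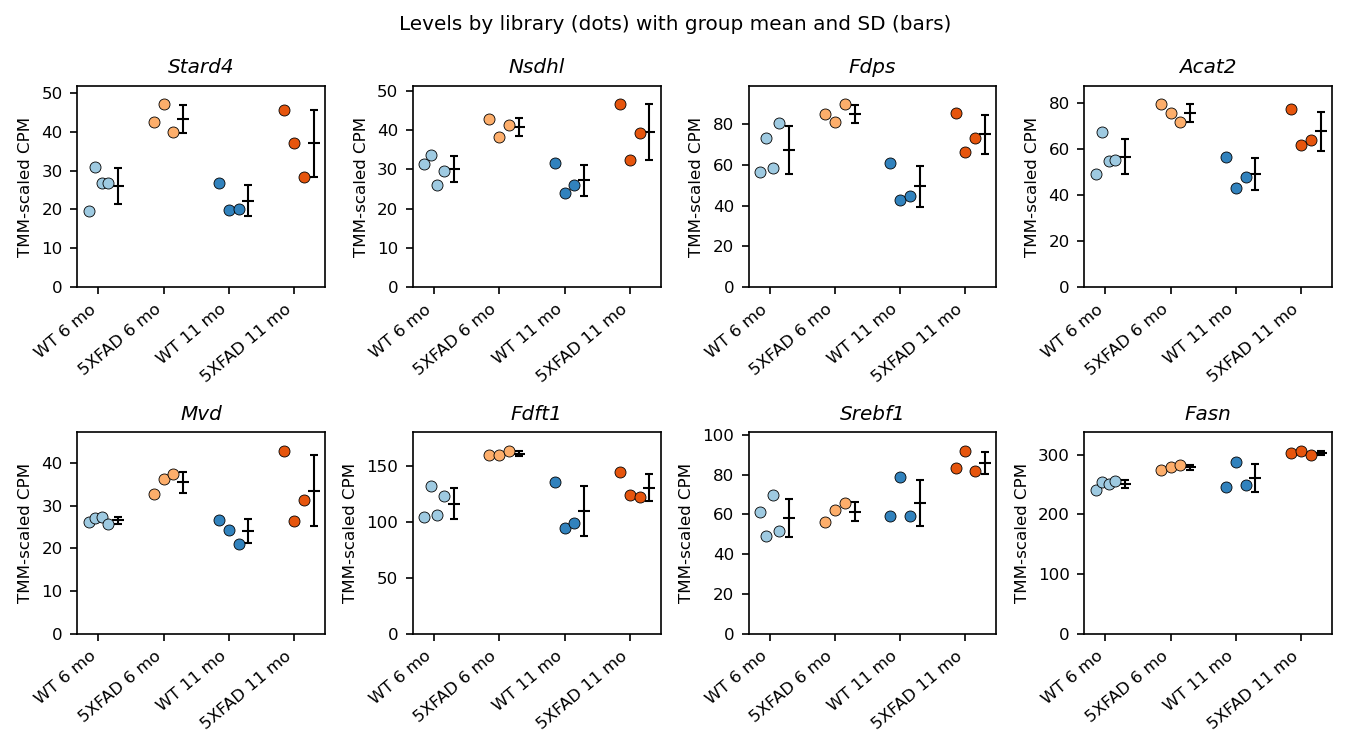
TMM-scaled CPM of 8 genes in each library (dots) with the group mean and SD (bars), from a zero baseline. Stard4, Nsdhl, Fdps, Acat2 and Fasn show no overlap between genotypes within an age, while 5XFAD libraries of Mvd and Fdft1 at 11 months reach into the wild-type range.

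The calls at 11 months rested on single libraries and on the model. Over 13 alternatives the adjusted p of Stard4 reached 0.195 and 8 ended its call, that of Fdps reached 0.201 (8 ended it), and that of Nsdhl 0.204 (7 ended it). No member was called without wild-type replicate 3 or without 5XFAD replicate 1, and Stard4, Fdps and Nsdhl all lost their calls without wild-type replicate 2. Stard4 alone was called without 5XFAD replicate 3. It lost its call without 5XFAD replicate 2. Every log2 fold change of the 3 genes stayed above 0, between 0.52 and 0.89 for Stard4, 0.48 and 0.78 for Fdps, and 0.38 and 0.66 for Nsdhl.

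None of the 5 SREBP regulators passed the test at either age. Srebf2, which encodes the SREBP form that mainly drives sterol genes, was at 182, 218, 193 and 201 CPM in wild type and 208, 207 and 213 CPM in 5XFAD at 6 months and at 236, 212 and 190.2 CPM in wild type and 220.3, 234 and 228 CPM in 5XFAD at 11 months. The groups overlapped at both ages (0.08 ± 0.09 and 0.09 ± 0.09). Insig1, which retains SREBP and is itself a known SREBP target, was at 46.4, 70.1, 60.3 and 66.6 CPM in wild type and 65.7, 76.0 and 77.4 CPM in 5XFAD at 6 months. At 11 months Insig1 was at 62.7, 64.4 and 50.6 CPM in wild type and 88.2, 56.4 and 65.4 CPM in 5XFAD. In Insig1 the lowest library of all was wild-type replicate 1 at 6 months, the groups overlapped at both ages, and the differences of 0.26 ± 0.16 and 0.24 ± 0.17 did not pass. Its relative Insig2 ranged over 26.7 to 36.1 CPM (0.06 and 0.00).

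Srebf1, whose SREBP form mainly drives fatty acid genes and which is a known target of the liver X receptors, was at 61.3, 49.2, 69.98 and 51.7 CPM in wild type and 56.2, 62.4 and 65.7 CPM in 5XFAD at 6 months. At 11 months Srebf1 was at 59.1, 79.0 and 59.3 CPM in wild type and 83.1, 92.0 and 81.9 CPM in 5XFAD. The genotypes overlapped at 6 months and were apart at 11 months, where wild-type replicate 2 came nearest to 5XFAD (0.08 ± 0.13 and 0.38 ± 0.14, adjusted p = 0.908 and 0.176). Without that library Srebf1 passed, with adjusted p = 0.0414. Srebf1 shares 109 exonic bases on opposite strands with Rai1, and with the strand setting unknown its values are uncertain too. Unlike those of Fdft1, the expected counts of Srebf1 were fractional in 0 of the 13 libraries. How far reads of Rai1 entered them was not tested. Rai1 had log2 fold changes of -0.23 and -0.24 between genotypes, and of 0.33 and 0.32 with age in wild type and 5XFAD. The difference of Srebf1 between the ages was 0.30 ± 0.19 (unadjusted p = 0.14, adjusted p = 1). Scap, the escort of SREBP, was at 81.9, 75.3, 87.2 and 82.9 CPM in wild type and 65.3, 70.01 and 73.1 CPM in 5XFAD at 6 months. It was the 1 member whose 5XFAD libraries all lay below all wild-type libraries at that age (5.07% of all genes tested did so), and it did not pass (-0.24 ± 0.08, adjusted p = 0.341). At 11 months Scap was at 72.4, 87.8 and 79.5 CPM in wild type and 70.8, 79.2 and 72.3 CPM in 5XFAD and the groups overlapped (-0.11 ± 0.09).

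Fatty acid synthesis was represented by 5 genes. Acaca makes malonyl-CoA and Fasn builds palmitate from it. Fasn was at 241, 255, 251 and 256 CPM in wild type and 274, 279.9 and 282 CPM in 5XFAD at 6 months. At 11 months Fasn was at 246, 288 and 249 CPM in wild type and 303, 306 and 298 CPM in 5XFAD, with the 3 5XFAD libraries within 10 CPM of each other. Acaca was at 56.1, 68.0, 64.7 and 67.0 CPM in wild type and 70.3, 70.3 and 76.5 CPM in 5XFAD at 6 months and at 71.7, 82.2 and 63.8 CPM in wild type and 85.9, 87.5 and 90.3 CPM in 5XFAD at 11 months. For both genes the genotypes did not overlap at either age. The differences were small: 0.15 ± 0.07 and 0.21 ± 0.08 for Fasn, 0.18 ± 0.09 and 0.28 ± 0.10 for Acaca, with adjusted p from 0.162 to 0.609. Both passed at 11 months when wild-type replicate 2 was left out (adjusted p = 0.0429 for Acaca and 0.0342 for Fasn).

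The desaturases and the elongase did not share this pattern. Elovl6, which lengthens palmitate, was at 28.9, 33.4, 39.99 and 34.2 CPM in wild type and 38.4, 33.8 and 31.4 CPM in 5XFAD at 6 months. At 11 months Elovl6 was at 37.1, 26.3 and 35.6 CPM in wild type and 22.9, 31.3 and 26.0 CPM in 5XFAD, with overlap (0.02 ± 0.14 and -0.30 ± 0.15). The 6-month value took the other sign under some alternatives. Scd2, the main stearoyl-CoA desaturase of brain, was the most abundant member per length, with a median of 265 TPM, and its log2 fold changes were 0.21 and 0.02. Scd1 ranged over 118 to 249.9 CPM, both extremes being wild-type libraries at 6 months (0.20 and -0.17). The library at the upper extreme, wild-type replicate 3, also had the highest summed level of 10 oligodendrocyte markers, 10070 TPM against 4724 to 4860 TPM in the other 3 of its group.

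Per length, the members spanned from Scd2 (265 TPM) and Fasn (202 TPM) through Hmgcs1 (93.5 TPM) and Fdps (90.7 TPM) down to Stard4 (8.30 TPM) and Hsd17b7 (5.17 TPM), as medians over the 13 libraries. Hmgcs1 and Fdps were neighbours whose ranges of 62.6 to 109.7 and 56.2 to 113 TPM overlapped almost wholly. The members varied most in Stard4, whose highest library held 2.39 times the lowest, and least in Fasn (1.27 times). Among the 5XFAD libraries at 6 months the median coefficient of variation of the members was 5.93%, beside 10.05% over all genes tested. In the other groups it was 13.1%, 12.3% and 11.0% (wild type at 6 and 11 months and 5XFAD at 11 months), beside 12.3%, 16.0% and 10.3%.

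Age changed none of the 30 genes past the threshold in either genotype. In edgeR's test 0 were called in wild type, where 3.71% of all genes tested were called, and 0 in 5XFAD, where 7.23% were. At an unadjusted p under 0.05 the counts were 1 higher and 2 lower in wild type (13.1% and 10.7% of all genes tested) and 2 higher and 3 lower in 5XFAD (13.8% and 10.6%). In 5XFAD 4 members lay higher and 4 lower at 11 months without overlap (18.4% and 17.3% of all genes tested). DESeq2 called 1 of the 30 in wild type, Fdps, lower, where it called 10.5% of all genes, and 2 in 5XFAD, Acaca and Srebf1, higher, where it called 11.8%. The median log2 fold change from 6 to 11 months was -0.04 in wild type and -0.06 in 5XFAD, beside 0.02 and 0.00 over all genes. Srebf1 came nearest: it was 0.48 ± 0.14 in 5XFAD (adjusted p = 0.0531 by edgeR) and 0.18 ± 0.13 in wild type (adjusted p = 0.426). Each of 7 other ways of processing carried it past the threshold in 5XFAD, with adjusted p from 0.00659 to 0.0496, and leaving out any 1 library of the 2 groups did not (0.0844 to 0.198). In wild type Fdps was at -0.44 ± 0.15 (adjusted p = 0.0974) and Ebp at -0.32 ± 0.13, both lower at 11 months. Without wild-type replicate 1 at 11 months both passed (adjusted p = 0.0195 and 0.0185). In 5XFAD Elovl6 (-0.37 ± 0.15), Fdft1 (-0.30 ± 0.13) and Cyp51 (-0.29 ± 0.11) were lower at 11 months with no overlap, and Acaca was higher (0.28 ± 0.10, adjusted p = 0.0984). Markers of other cells moved with age in the same libraries. Of 8 microglia markers 0 were called in wild type (median 0.47) and 6 rose in 5XFAD (median 0.94). Of 8 astrocyte markers 2 were called higher in wild type and 3 in 5XFAD (medians 0.51 and 0.54). All 8 were higher at an unadjusted p under 0.05 in both genotypes, beside 13.1% and 13.8% of all genes tested. Of 4 endothelial markers 4 and 3 were called higher (medians 0.94 and 0.87). Of 4 oligodendrocyte precursor markers 3 and 1 were (medians 0.50 and 0.31), and all 4 lay above 0 in both genotypes. Of 10 oligodendrocyte markers 0 were called, with medians of -0.12 and -0.36. The part of these cells in the age differences of the lipid genes was not tested.

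**Figure D4:**
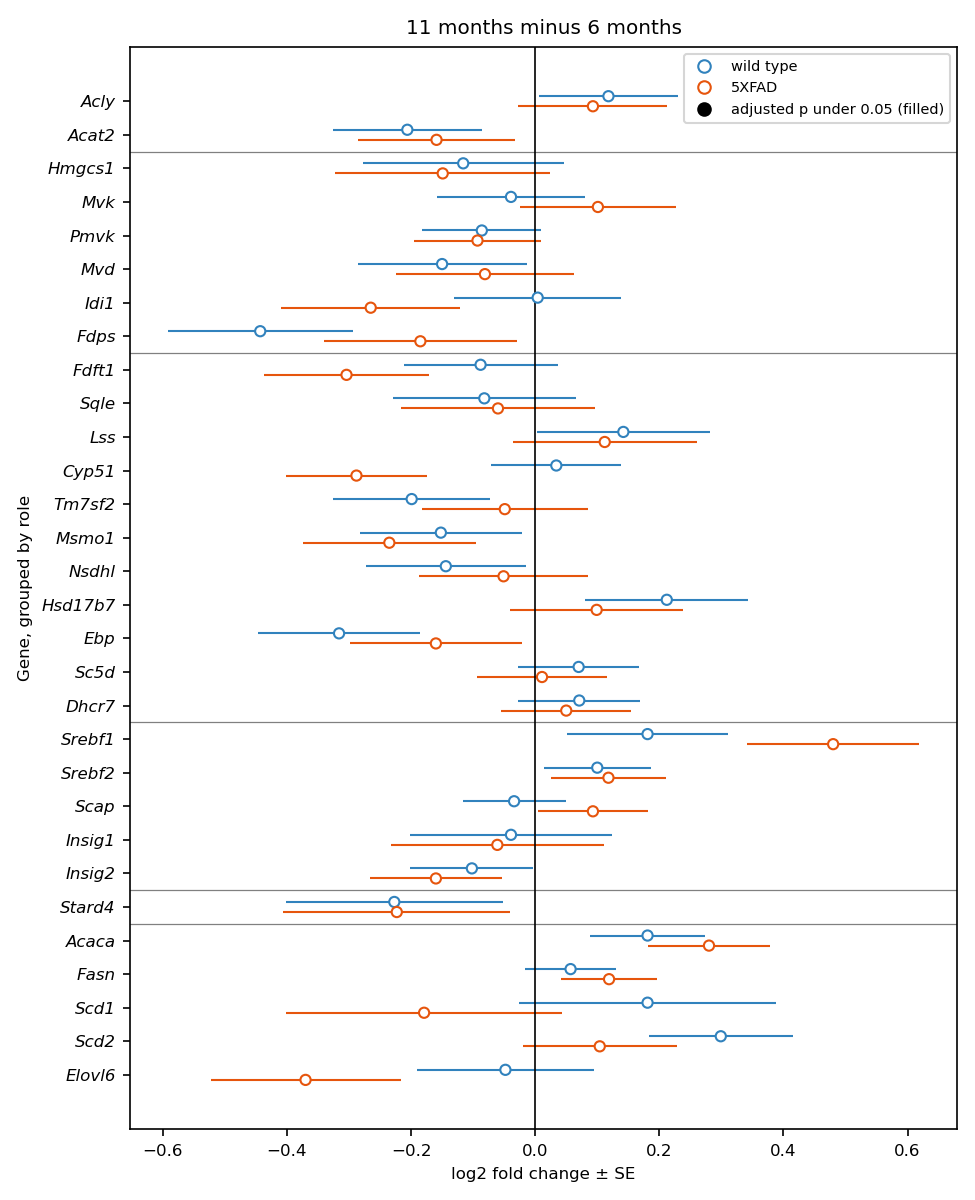
Difference between 11 and 6 months for each gene, as log2 fold change with its standard error on the horizontal axis, in wild type (blue) and 5XFAD (orange). No point is filled, so none passed an adjusted p under 0.05, and Srebf1 in 5XFAD lies farthest above 0.

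The genotype difference was not shown to change with age for any member. In the test of the interaction 0 of the 30 were called and 0 had an unadjusted p under 0.05 (0.00572% and 3.96% of all genes tested). DESeq2 also called 0. The 30 interaction terms had a median of -0.01 and ran from -0.36 (Scd1) to 0.30 (Srebf1). This does not show that the 2 ages are alike: the term was 0.26 ± 0.21 for Fdps, 0.09 ± 0.19 for Nsdhl and 0.02 ± 0.21 for Sqle.

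Other genes of sterol and lipid handling were read from lists set up beside the members. Of 9 genes of sterol efflux and its nuclear receptors 1 rose at 6 months and 2 at 11 months. Over all genes tested, 1.32% were called at 6 months and 3.80% were called higher at 11 months. Npc2, which hands cholesterol out of the lysosome, was at 62.0, 55.4, 73.0 and 61.4 CPM in wild type and 91.3, 96.1 and 94.8 CPM in 5XFAD at 6 months and at 63.2, 69.9 and 66.1 CPM in wild type and 126, 121 and 151 CPM in 5XFAD at 11 months. Npc2 was apart at both ages, with log2 fold changes of 0.58 ± 0.10 and 0.997 ± 0.11 (adjusted p = 0.00644 and 4.93e-05). Abca1, the cholesterol exporter, rose at 11 months by 0.63 ± 0.14 (adjusted p = 0.0206). It also rose with age in both genotypes, by 0.59 ± 0.14 in wild type and 1.03 ± 0.15 in 5XFAD. Of 8 genes of cholesterol esters and oxysterols 1 rose at 6 months and 2 at 11 months, beside the same shares of all genes tested. Ch25h, which makes 25-hydroxycholesterol, a known suppressor of SREBP cleavage, was at 0.246, 0.772, 1.20 and 0.613 CPM in wild type and 2.74, 1.48 and 3.65 CPM in 5XFAD at 6 months. At 11 months Ch25h was at 0.319, 0.888 and 0.583 CPM in wild type and 4.61, 5.48 and 4.22 CPM in 5XFAD, with no overlap at either age (1.88 ± 0.43 and 2.99 ± 0.48, adjusted p = 0.0481 and 0.00156). Lipa, the lysosomal esterase, rose at 11 months by 0.51 ± 0.10 (adjusted p = 0.0103).

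Of 8 lipid droplet genes 0 were called at 6 months (1.32% of all genes tested) and 1 rose at 11 months (3.80% were called higher). The 1 was Plin2, a coat protein of the droplets (0.84 ± 0.18, adjusted p = 0.0156). In the remaining lists no gene passed in either genotype comparison. These were 7 genes of SREBP processing (median 0.01 at 6 months and 0.02 at 11 months), 9 of isoprenoid branches (0.10 and -0.02; smallest p at 11 months Srd5a3, 0.45 ± 0.13), 14 of fatty acid elongation and desaturation (0.13 and 0.02; Me1, 0.38 ± 0.13), 11 of fatty acid oxidation (-0.03 and 0.01; Cpt2, 0.31 ± 0.16) and 8 of myelin sphingolipid synthesis (0.10 and 0.04; Sptlc1, -0.13 ± 0.08). With age, Cpt1a, which admits fatty acids to mitochondria, rose in 5XFAD by 0.49 ± 0.13 (adjusted p = 0.0405) and stood at 0.46 ± 0.12 in wild type (adjusted p = 0.0531). Lcat, which esterifies cholesterol on lipoproteins, rose in wild type by 0.64 ± 0.17 (adjusted p = 0.0495) and stood at 0.54 ± 0.18 in 5XFAD (adjusted p = 0.0794). In 5XFAD Plin2 rose by 0.67 ± 0.18, Lipa by 0.40 ± 0.10 and Npc2 by 0.49 ± 0.10, beside 0.25 ± 0.17, 0.02 ± 0.10 and 0.08 ± 0.10 in wild type. None of these 5 genes passed the test of a difference between the genotypes in the age change.

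Markers of the cells that make or handle lipid moved in part with the genotype. In whole tissue, more cells of a type and more RNA per cell cannot be told apart. The summed level of 8 microglia markers was 260.4 to 273 TPM in wild type and 551 to 632 TPM in 5XFAD at 6 months, and 308 to 446 and 1073 to 1356 TPM at 11 months. Of these markers 6 rose at 6 months and 7 at 11 months, with C1qa, a complement gene, at 2.23 ± 0.16. Among all genes tested, 1.32% were called at 6 months and 3.80% were called higher at 11 months. For 8 astrocyte markers the sums were 1128 to 1301 and 1273 to 1379 TPM at 6 months and 1458 to 2127 and 1619 to 2055 TPM at 11 months, overlapping at both ages. Singly, 5 of the 8 lay above wild type without overlap at 6 months and 1 at 11 months, beside 6.97% and 10.4% of all genes tested. Their median log2 fold changes, 0.18 and 0.26, were near those of the 30 lipid genes. Among them Aqp4 alone was called higher, at 11 months (0.98 ± 0.18). The 10 oligodendrocyte markers summed to 4724 to 10070 and 6446 to 7837 TPM at 6 months and 4266 to 7957 and 4751 to 7658 TPM at 11 months. They overlapped at both ages and 0 of 10 were called. Their median log2 fold changes of 0.41 and 0.17 were also above 0. Of 7 neuronal, 4 oligodendrocyte precursor and 4 endothelial markers 0 were called for genotype at either age. In the library with the highest oligodendrocyte sum, wild-type replicate 3 at 6 months, the mean log2 level relative to all libraries was -0.15 for the 11 squalene and sterol ring genes, -0.13 for the 6 mevalonate and isoprenoid genes and 0.13 for the 5 fatty acid genes. None of these marker lists was at 0 in any group, and their part in the differences of the lipid genes was not tested.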

How the data were processed

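RNA sequencing libraries from frontal cortex were analysed as 4 groups taken from the titles. Per the labels' protocols, the input was column-purified total RNA. Per the submitters' processing notes, the authors used STAR 2.7.1, RSEM and the GRCm38 build. Strandedness, annotation and RSEM release were not given in the sources used here. Deposited expected counts per gene, which share reads that fit several genes, were rounded to whole numbers. The deposited TPM values, scaled by the authors for transcript length, served for levels between genes and for 1 alternative, log2(TPM + 1). Symbols and coordinates came from GENCODE M21, which matched all 55536 identifiers.

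The filterByExpr function (count of 10, total of 15) of edgeR 4.0.16 kept 17483 genes, all 30 members among them. With TMM scaling, 1 quasi-likelihood model with 4 group means was fitted over 13 libraries in R 4.3.3, and p-values were adjusted over all genes tested (Benjamini-Hochberg, threshold 0.05). A log2 fold change is given ± its standard error, derived from the F statistic. Alternatives were RLE scaling, DESeq2 1.42.0, a summed count of at least 10 as the only filter, limma 3.58.1 on log2(TPM + 1), limma with sample quality weights, fits of 2 groups only, sex as a covariate, and leaving out each library. The members, the lists and the tests were chosen with earlier results of these data known. Values in every library are given for members past the threshold in any comparison, for up to 3 per role with the smallest p at 11 months, and for Srebf1, Srebf2 and Insig1. Of the other lists up to 5 called genes, or else the gene with the smallest p, are named at 11 months, except 1 gene that is not reported here. Microglia markers are given by their sum and 1 gene. Fdft1, Tm7sf2, their overlapping neighbours, Rai1, Akap9 and the genes called for age outside the members were named after their values were seen. Each library held at least 23618289 counts.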

Additional observations from a re-analysis of the deposited data

How the results depend on the processing

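No paired analysis was possible because the titles give every library a number of its own and no label ties libraries across groups. The median over the 30 genes kept its sign in both genotype comparisons under every alternative run. It was 0.09 at 6 months and 0.10 at 11 months on the log2(TPM + 1) scale, where the median of all genes was -0.11 and -0.12, so the members lay 0.20 and 0.22 above it, beside 0.22 and 0.25 in edgeR. With 1 library left out it ranged from 0.13 to 0.27 at 6 months and from 0.13 to 0.28 at 11 months. Single members near 0 took the other sign in 20 of 420 values at 6 months (8 genes, Srebf1 and Srebf2 among them) and 25 of 390 at 11 months (6 genes), and no called member did.

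Members called at 6 months, 0 in edgeR, numbered 2 by DESeq2 and with quality weights (Fdft1 and Stard4), beside 2.20% and 2.43% of all genes. They numbered 3 when the 2 groups were fitted alone (1.52% of all genes) and 1 with the sex covariate (0.995%). At 11 months, 3 in edgeR (4.31% of all genes called), they numbered 7 by DESeq2 (6.45%) and 1 with the sex covariate (3.61%). They numbered 0 with log2(TPM + 1), quality weights or the 2 groups alone (4.90%, 3.82% and 2.43% of all genes). With 1 library left out they numbered 0 to 5 (2.38% to 4.70% of all genes), with 5 without wild-type replicate 1 (3.85%). For age in wild type, 0 in edgeR, there was 1 by DESeq2 (10.5% of all genes), and 0 to 2 with 1 library left out (0.00% to 10.7%). For age in 5XFAD, 0 in edgeR, there was 1 with RLE scaling, the summed count filter, log2(TPM + 1) or the sex covariate. Those settings called 7.14%, 4.56%, 4.72% and 5.04% of all genes. DESeq2 called 2 members (11.8% of all genes), quality weights 5 (22.7%) and the 2 groups alone 4 (14.8%).

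Over all genes, the calls at 6 months were 231 in edgeR, 384 by DESeq2, 424 with quality weights and 134 to 205 with 1 library left out. At 11 months they were 753, 424 with the 2 groups alone and 424 to 840 with 1 library left out. The interaction gave 1, 30 by DESeq2, 4 with log2(TPM + 1), and 1 to 3 with 1 library left out. Age in wild type gave 649, 1843 by DESeq2, 430 with the summed count filter, 296 with log2(TPM + 1), 163 with quality weights, 1 with the 2 groups alone, 345 with the sex covariate and 0 to 1921 with 1 library left out (0 without wild-type replicate 4 at 6 months, 1921 without wild-type replicate 1 at 11 months). Age in 5XFAD gave 1264, 2063 by DESeq2, 825 with log2(TPM + 1), 3977 with quality weights, 2579 with the 2 groups alone and 97 to 798 with 1 library left out. The cause of these shifts was not tested. The split of calls moved with the scale: 78.7% of calls at 6 months were higher with log2(TPM + 1), against 98.7% in edgeR, and 60.5% against 88.3% at 11 months. For age it was 89.9% against 65.2% in wild type and 89.6% against 67.0% in 5XFAD.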
